A study of Mus musculus with 6 samples.

Results

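The genes described here encode the contractile apparatus of striated muscle and the proteins that couple the nerve-driven electrical signal to contraction by releasing and taking up calcium. A set of 38 such genes was listed by symbol and function, at a time when earlier results of these data were known, and 35 of them had an amplicon among the 23930 in the deposited table. Myh7, Tnnc2 and Trdn were not analysed here. Of the 35 genes, 34 had a mean of at least 1 RPM (reads scaled to a fixed library total) and were tested. Myl4, which encodes an embryonic and atrial myosin light chain, had between 0 and 5 reads in the 6 libraries. The library without a read, knockout replicate 2, allows a level of up to 0.329 RPM, the value of 3 reads, and that limit covers counting error only.

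The RNA came from the shaft of the humerus of mouse embryos at stage E16.5. The 3 control libraries carried the genotype Stat3C/+, with no Cre driver listed and the name wild type. The 3 knockout libraries carried Prrx1Cre; Stat3C/C, so that the Stat3C allele was present in both groups. Prrx1Cre is a driver known for its activity in the limb bud mesenchyme that forms bone, cartilage, tendon and connective tissue, whereas the fibres of limb muscle arise from cells that migrate from the somites. The sources used here do not say whether the 3 libraries of a group came from separate embryos or litters. Each p-value therefore rests on the spread among these libraries, and that spread may be partly technical. Depth ran from 9126493 to 13376550 reads per library. The amplicon of Stat3, the targeted gene, read 201 to 211 RPM in control bone and 170 to 208 RPM in knockout bone (log2 fold change -0.11 ± 0.08, SE; limma, adjusted p = 0.380). Its place relative to the deleted part is not known here, so it checks nothing about the labels.

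A sarcomere is the repeating unit of a muscle fibre, in which thick filaments of myosin pull on thin filaments of actin that are anchored at the Z-discs. Calcium leaves the sarcoplasmic reticulum through the ryanodine receptor when the voltage sensor of the surface membrane is activated, binds troponin on the thin filament, and is pumped back by a calcium ATPase. Many of these proteins exist in embryonic, slow and fast forms that are exchanged as fibres mature, and at this stage of limb development the muscles attached to the humerus hold growing primary and secondary fibres. Of the markers that define heart muscle, Nppa, Nppb, Myl7, Ryr2, Nkx2-5 and Tbx20 were each below 1 RPM in all 6 libraries. Myh6 read 1.94 to 3.69 RPM, Tnni3 read 1.20 to 2.66 RPM, and Myl2, which slow skeletal fibres also use, read 130 to 216 RPM. The striated muscle signal in these libraries thus carried the defining genes of skeletal fibres, with these listed heart markers at or near 0, apart from Myl2. Tnnt2 (392 to 457 RPM) and Myl3 (149 to 184 RPM), which heart muscle also uses, were not among these markers.

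Estimates for 28 of the 34 sarcomere and excitation-contraction genes lay below 0 in knockout bone, and 6 lay above. Of all genes tested, 59.9% lay below 0. In the test of all 12846 amplicons, 13 of the 34 genes were lower (38.2%) and 1 was higher (2.94%), beside 11.0% lower and 5.71% higher among all genes tested (limma, adjusted p under 0.05). The 13 lower genes were Ttn, Ldb3, Ryr1, Actn2, Casq2, Myl1, Myh3, Myom2, Smyd1, Actc1, Atp2a1, Des and Tpm2, and the higher one was Tnni1. With TMM scaling 9 were lower and 1 higher, beside 7.52% and 7.66% of all genes, and the genes that lost the call were Actc1, Atp2a1, Des and Tpm2. The median log2 fold change of the 34 genes was -0.17, beside -0.06 for all genes tested. No gene changed as much as 2-fold, and the estimates ran from -0.56 to 0.25 on the log2 scale.

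The levels of the group as a whole differed by a small amount. The 35 genes took 5.31%, 5.42% and 5.73% of the reads in control replicates 1 to 3 and 4.79%, 4.997% and 5.08% in knockout replicates 1 to 3, so that the groups did not overlap. Mylpf, the fast regulatory light chain, made up 21.4% to 26.0% of that sum in every library. The geometric mean of the 34 tested genes, in which each gene counts equally, was 495 ± 4.36 RPM (SD, n = 3) over the controls and 439 ± 2.85 RPM (SD, n = 3) over the knockouts. The summed level of 79 further muscle genes, described below, lay the other way. It was 13752 to 13966 RPM in controls and 14244 to 14681 RPM in knockouts. A large part of that difference lay in Srl alone, with means of 1296 RPM in controls and 1636 RPM in knockouts. The median log2 fold change of the 77 tested among these genes was 0.02, with 8 higher and 9 lower, so they did not rise as a set. In bulk tissue, fewer muscle fibres and less RNA per fibre cannot be told apart, and neither was tested. Values of 19 of the 34 genes (55.9%) lay lower in all knockout libraries than in any control library, beside 21.9% of all genes tested, and Tnni1 alone (2.94%) lay higher in all of them, beside 11.9%.

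**Figure D1:**
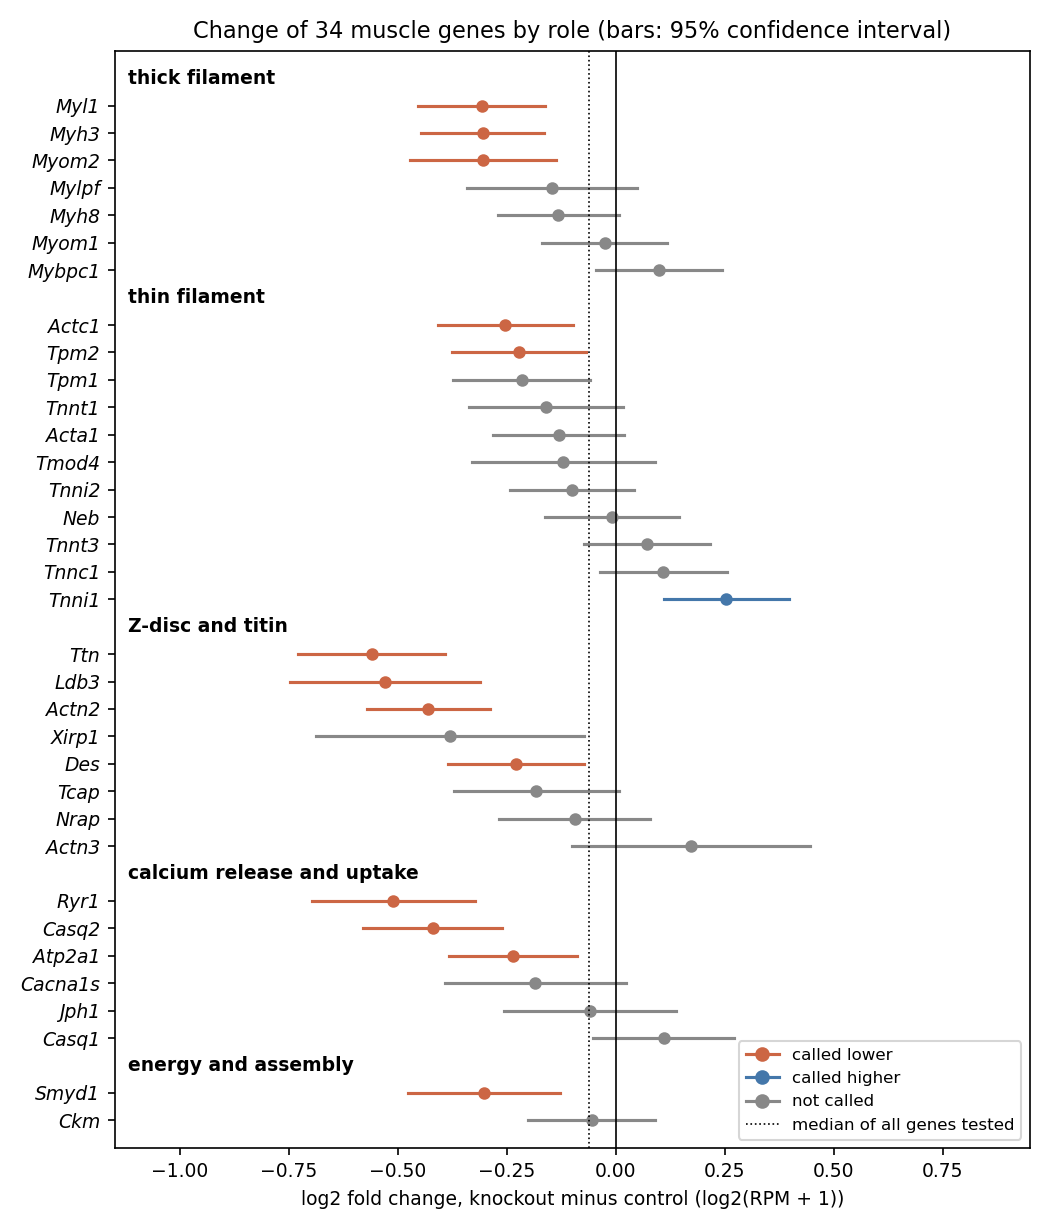
Log2 fold change of each of the 34 tested genes, knockout minus control, on the log2(RPM + 1) scale, grouped by role, with 95% confidence intervals from limma and the median of all genes tested as a dotted line. The estimates run from -0.56 for Ttn to 0.25 for Tnni1, and 28 of 34 lie below 0, beside 59.9% of all genes tested.

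Promoter stretches of 4 of these genes are shown, from the higher gene Tnni1 and from those of the 5 most strongly lower genes that hold a searched motif, Ttn, Ldb3 and Casq2. The windows of the other two, Ryr1 and Actn2, held no match and are not printed. Of the 34 tested genes, 26 matched a promoter in the RefSeq table (build GRCm38.p6). The 250 bases before the most upstream start in that table were searched for each gene, on both strands, for the E-box CAGCTG, bound by myogenic factors of the MyoD family, for the MEF2 site, for the CArG box, bound by serum response factor, and for TTCNNNGAA, the motif bound by STAT proteins. The bases from -250 to -21 are printed 5′ to 3′ on the strand of the gene, and capitals mark a match. No match overlapped another. For 5 of the 26 genes (Mylpf, Myom1, Tnni1, Ckm and Smyd1) this start lies more than 1000 bases inside the gene as GENCODE annotates it, 19987 bases inside for Tnni1, so that those windows do not precede the outermost annotated start.
Ttn, chr2:76982568-76982797 (- strand), MEF2 site from -166 to -157: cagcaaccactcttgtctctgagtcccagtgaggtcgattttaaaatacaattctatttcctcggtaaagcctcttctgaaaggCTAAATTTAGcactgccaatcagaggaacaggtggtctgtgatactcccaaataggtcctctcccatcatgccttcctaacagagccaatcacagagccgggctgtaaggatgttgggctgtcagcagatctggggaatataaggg
Casq2, chr3:102086165-102086394 (+ strand), MEF2 site from -69 to -60: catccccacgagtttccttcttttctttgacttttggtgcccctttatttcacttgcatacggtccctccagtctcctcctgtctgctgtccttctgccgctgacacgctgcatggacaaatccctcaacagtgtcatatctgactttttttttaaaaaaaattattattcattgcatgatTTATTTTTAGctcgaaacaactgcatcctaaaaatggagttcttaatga
Ldb3, chr14:34588702-34588931 (- strand), CArG box from -35 to -26: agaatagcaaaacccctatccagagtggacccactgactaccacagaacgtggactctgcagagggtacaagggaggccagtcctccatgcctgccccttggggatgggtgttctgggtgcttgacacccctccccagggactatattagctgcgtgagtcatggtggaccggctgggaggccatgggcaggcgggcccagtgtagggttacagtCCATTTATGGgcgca
Tnni1, chr1:135799171-135799400 (+ strand), E-box from -68 to -63: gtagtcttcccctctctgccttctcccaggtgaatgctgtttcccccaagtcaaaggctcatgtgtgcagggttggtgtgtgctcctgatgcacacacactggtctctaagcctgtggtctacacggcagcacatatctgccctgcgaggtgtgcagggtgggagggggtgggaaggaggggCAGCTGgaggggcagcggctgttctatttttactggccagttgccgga

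The E-box was present in 12 of the 26 genes (46.2%), beside 12.7% of the 27025 genes in the promoter table. It stood in the windows of 4 of the 12 lower genes with a promoter (Myl1, Tpm2, Des and Atp2a1), in 7 of the 13 that did not pass the test, and in Tnni1. The MEF2 site was present in 3 of 26 (Ttn, Casq2 and Myh8, 11.5%, beside 3.03%) and the CArG box in 4 (Actc1, Ldb3, Acta1 and Myom1, 15.4%, beside 1.41%). TTCNNNGAA was in 0 of the 26 windows, beside 7.14% of all genes in the promoter table. Among the 9731 tested genes with a promoter, the E-box stood in 12.1%, the MEF2 site in 1.85%, the CArG box in 1.17% and TTCNNNGAA in 5.86%. With 26 windows, 0 matches at such a share does not show an absence particular to these genes. Each match is a description of letters in these windows.

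At the Z-disc and along the elastic filament, 4 of 8 genes were lower (50%), beside 11.0% of all genes tested. None was higher, and the median log2 fold change was -0.30. Ttn encodes titin, the giant protein that spans from the Z-disc to the middle of the sarcomere (chromosome 2, 76703980 to 76982547, GRCm38). It read 922, 820 and 835 RPM in the controls against 648, 591 and 513 RPM in the knockouts. The groups were well apart, with knockout replicate 3 the lowest, and the log2 fold change was -0.56 ± 0.08 (SE; limma, adjusted p = 6.77e-05). Actn2, alpha-actinin 2, cross-links actin at the Z-disc (chromosome 13, 12269426 to 12340760). It read 779, 806 and 768 RPM in control bone and 569, 589 and 587 RPM in knockout bone. Both groups were tight and did not overlap, and the log2 fold change was -0.43 ± 0.07 (adjusted p = 1.61e-04).

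Ldb3 encodes the Z-disc protein also called ZASP or Cypher, which binds alpha-actinin (chromosome 14, 34526603 to 34588682). It read 67.5, 55.6 and 63.7 RPM in the controls against 47.7, 37.8 and 43.1 RPM in the knockouts. The highest knockout library lay below the lowest control, and the log2 fold change was -0.53 ± 0.11 (adjusted p = 0.00155). Des, the intermediate filament that ties Z-discs together, read 1144, 1314 and 1209 RPM in control bone and 1135, 990 and 1004 RPM in knockout bone. Here the highest knockout, replicate 1, came close to the lowest control, also replicate 1, and the log2 fold change was -0.23 ± 0.08 (adjusted p = 0.0393, and 0.127 with TMM scaling). Leaving out control replicate 2, control replicate 3, knockout replicate 2 or knockout replicate 3 ended the call, at an adjusted p of 0.0585 to 0.208.

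The remaining Z-disc genes did not pass. Xirp1, an actin-binding repeat protein of growing myofibrils, read 10.1, 11.5 and 8.95 RPM in the controls against 7.20, 7.78 and 7.67 RPM in the knockouts. Its groups did not overlap, but at this low level the standard error was 0.15 and the log2 fold change of -0.38 had an adjusted p of 0.0805 (limma). Tcap, which caps titin at the Z-disc, had a log2 fold change of -0.18 (95% confidence interval -0.37 to 0.01). Nrap, found where new myofibrils form, stood at -0.09 (-0.27 to 0.08). Actn3, the alpha-actinin of fast fibres, stood at 0.17 (-0.10 to 0.45), and its interval spans both directions.

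Among the genes that release, store and take up calcium, 3 of 6 were lower (50%), beside 11.0% of all genes tested. None was higher, and the median was -0.21. Ryr1 encodes the skeletal ryanodine receptor, the release channel of the sarcoplasmic reticulum (chromosome 7, 29003344 to 29125179). It read 85.9, 90.1 and 80.6 RPM in control bone and 62.7, 55.7 and 60.8 RPM in knockout bone. All knockout libraries were below all controls, with a log2 fold change of -0.51 ± 0.09 (limma, adjusted p = 5.14e-04). Casq2, the calsequestrin of heart and slow fibres, buffers calcium inside the store (chromosome 3, 102086415 to 102146514). It read 728, 697 and 690 RPM in the controls against 560, 557 and 468 RPM in the knockouts. Knockout replicate 3 was again the lowest, and the log2 fold change was -0.42 ± 0.08 (adjusted p = 7.31e-04).

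Atp2a1 encodes SERCA1, the calcium pump of fast fibres. It read 728, 760 and 692 RPM in control bone and 609, 647 and 595 RPM in knockout bone. The groups did not overlap and the log2 fold change was -0.24 ± 0.07 (limma, adjusted p = 0.0245, and 0.0848 with TMM scaling). Leaving out control replicate 1 or 2, or knockout replicate 1 or 3, ended this call, at an adjusted p of 0.0591 to 0.128. Casq1, the calsequestrin of fast fibres, read 430, 451 and 466 RPM in the controls against 506, 431 and 521 RPM in the knockouts. Its groups overlapped and its log2 fold change of 0.11 (95% confidence interval -0.05 to 0.27) did not pass. Cacna1s, the voltage sensor that opens the release channel, stood at -0.18 (-0.39 to 0.02), and Jph1, which holds the surface membrane and the store together, at -0.06 (-0.26 to 0.14), so that neither passed.

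In the thick filament and its M-band, 3 of 7 tested genes were lower (42.9%), beside 11.0% of all genes tested, and none was higher. Myh3, the embryonic myosin heavy chain (chromosome 11, 67078300 to 67102291), read 1061, 1067 and 986 RPM in control bone and 852, 826 and 840 RPM in knockout bone. The 3 knockout libraries lay within a narrow band below all controls, and the log2 fold change was -0.31 ± 0.07 (limma, adjusted p = 0.00392). Myh8, the perinatal heavy chain and a neighbour of Myh3 on the same chromosome, read 2041, 1902 and 1965 RPM in the controls against 1744, 1814 and 1835 RPM in the knockouts. Its groups did not overlap either, but its log2 fold change of -0.13 (95% confidence interval -0.27 to 0.01) did not pass (adjusted p = 0.187, and 0.0154 with quantile scaling). Heavy chain genes are near copies of one another, so reads of their amplicons may be shared.

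Myl1, the alkali light chain of fast fibres, read 3520, 3515 and 3480 RPM in control bone and 2728, 2711 and 3068 RPM in knockout bone. The control values were nearly equal and knockout replicate 3 was the highest of its group, with a log2 fold change of -0.31 ± 0.07 (limma, adjusted p = 0.00464). Myom2, an M-band protein that cross-links myosin and marks fast fibres, read 263, 233 and 232 RPM in the controls against 200, 207 and 181 RPM in the knockouts. The log2 fold change was -0.31 ± 0.08 (adjusted p = 0.0125), and the call was lost without control replicate 1 (0.0756) or without knockout replicate 3 (0.0531). Myom1, the M-band protein of all fibres, read 416, 418 and 428 RPM in control bone and 403, 414 and 422 RPM in knockout bone, and its log2 fold change was -0.03 (95% confidence interval -0.17 to 0.12). Mybpc1, the slow myosin-binding protein C, stood at 0.10 (-0.05 to 0.24). Mylpf read 11350, 11608 and 14920 RPM in the controls against 10238, 11197 and 12623 RPM in the knockouts, with overlapping groups and the highest control far above the other two (log2 fold change -0.15, -0.34 to 0.05).

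In the thin filament 2 of 11 genes were lower (18.2%) and 1 was higher (9.09%), beside 11.0% and 5.71% of all genes tested. The median was -0.12, and both lower genes, Actc1 and Tpm2, lost the call with TMM scaling. Actc1, cardiac alpha-actin and the main sarcomeric actin of embryonic skeletal muscle, read 9092, 10327 and 10178 RPM in control bone and 7744, 8374 and 8697 RPM in knockout bone. The groups did not overlap and the log2 fold change was -0.25 ± 0.08 (limma, adjusted p = 0.0233). The call was lost with TMM scaling (0.0986), and the estimate shrank to -0.03 with quantile scaling (0.787). It was also lost without control replicate 2 or 3 or knockout replicate 1 or 2, at an adjusted p of 0.0600 to 0.131. Acta1, skeletal alpha-actin, read 3924, 3711 and 3603 RPM in the controls against 3428, 3676 and 3169 RPM in the knockouts, which overlapped, and did not pass (log2 fold change -0.13, 95% confidence interval -0.28 to 0.02). The coding sequences of the alpha-actins are near copies, so their amplicons may share reads.

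Tpm2, a tropomyosin that lies along actin and blocks myosin until calcium binds troponin, read 2726, 2548 and 2337 RPM in control bone and 2270, 2224 and 2028 RPM in knockout bone. Its groups were close without overlap, and the log2 fold change was -0.22 ± 0.07 (limma, adjusted p = 0.0427, and 0.126 with TMM scaling). Leaving out control replicate 1 or 2, or knockout replicate 2 or 3, ended the call, at an adjusted p of 0.0906 to 0.184. Tpm1, its partner, read 1029, 1051 and 1030 RPM in the controls against 834, 844 and 1010 RPM in the knockouts. Knockout replicate 3 stood near the controls, and the log2 fold change was -0.22 ± 0.08 (adjusted p = 0.0540). Without knockout replicate 3 it was -0.31, with an adjusted p of 0.00751.

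Tnni1, the troponin I of slow and immature fibres, was the 1 member called higher (chromosome 1, 135779434 to 135810989). It read 1624, 1698 and 1831 RPM in control bone and 2028, 2080 and 2026 RPM in knockout bone. The lowest knockout exceeded the highest control, and the log2 fold change was 0.25 ± 0.07 (limma, adjusted p = 0.0148). The call was lost without control replicate 1 (0.0735), control replicate 2 (0.0687) or knockout replicate 2 (0.0693), and with quantile scaling (0.229), where the estimate was 0.12. Tnni2, the fast troponin I, read 2428, 2334 and 2419 RPM in the controls against 2093, 2275 and 2333 RPM in the knockouts. Its groups touched without overlap and the log2 fold change of -0.10 (95% confidence interval -0.24 to 0.04) did not pass.

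The other slow troponin genes did not pass. Tnnt1, slow troponin T, read 135, 119 and 114 RPM in control bone and 114, 109 and 106 RPM in knockout bone, with a log2 fold change of -0.16 (95% confidence interval -0.34 to 0.02). Tnnc1, the troponin C of slow fibres and heart, stood at 0.11 (-0.04 to 0.25). The fast troponin T gene Tnnt3 read 4594, 4416 and 4752 RPM in the controls against 4779, 5066 and 4616 RPM in the knockouts, which overlapped, with a log2 fold change of 0.07 (-0.07 to 0.22) that became -0.01 with quantile scaling. Neb, the ruler protein of the thin filament, stood at -0.01 (-0.16 to 0.15), with a sign that turned with the scaling, and Tmod4, which caps the pointed end, at -0.12 (-0.33 to 0.09). Outside the filaments, Smyd1, a methyltransferase needed for myosin assembly, read 120, 114 and 106 RPM in control bone and 90.5, 94.9 and 89.2 RPM in knockout bone. It was lower in every knockout library, with a log2 fold change of -0.30 ± 0.08 (adjusted p = 0.0167), and lost the call without control replicate 1 (0.0795) or 2 (0.0646). Ckm, the muscle creatine kinase that regenerates ATP, read 1058, 1185 and 1170 RPM in the controls against 1118, 1054 and 1110 RPM in the knockouts, with a log2 fold change of -0.06 (-0.20 to 0.09).

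**Figure D2:**
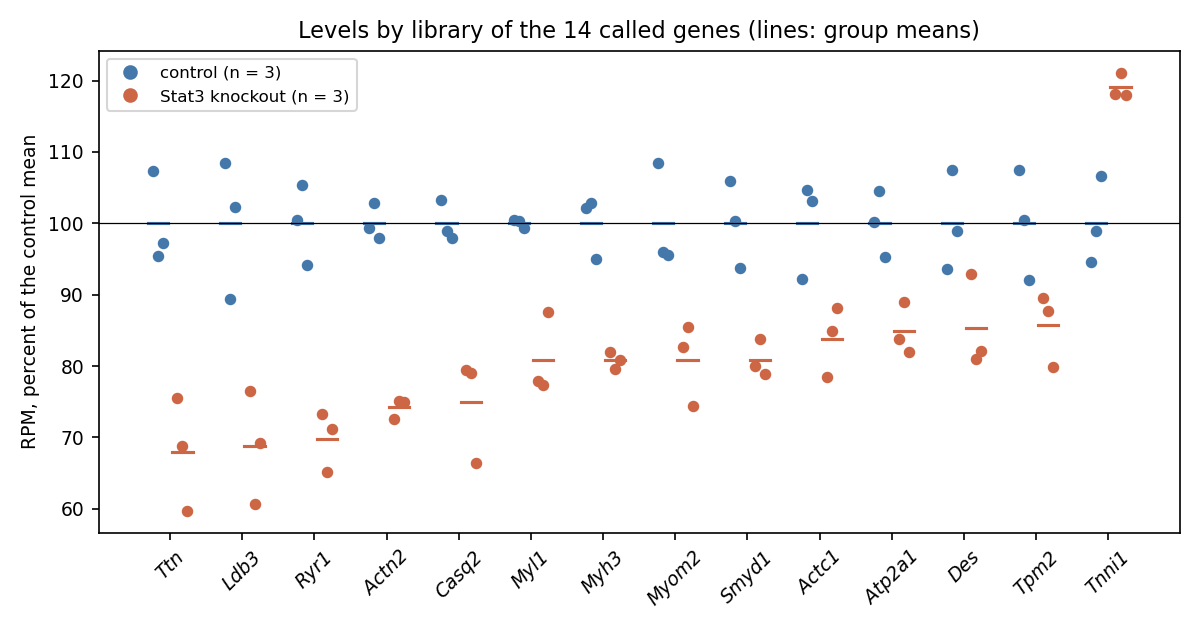
Level of each of the 14 genes past the threshold in every library, as a percent of that gene's control mean in RPM, with group means as lines (n = 3 each). Knockout means lie from 32.0% below the control mean for Ttn to 14.3% below it for Tpm2, and Tnni1 lies 19.1% above it.

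The genes did not move as 1 block. When each gene was set against the geometric mean of the 34 genes in the same library, which removes a common shift, the difference between groups still ran from -0.39 for Ttn to 0.43 for Tnni1 on the log2 scale. On this relative scale 10 genes were lower in every knockout library than in any control library, and 9 of these were among the 13 lower genes. Of all genes tested, set against the same mean, 8.18% were lower without overlap and 27.4% higher. That mean was itself lower in knockouts (439 RPM, beside 495 RPM in controls), which moves every gene up on this scale. In RPM the shares of all genes were 21.9% lower and 11.9% higher. Ttn, Ldb3 (-0.37), Ryr1 (-0.35), Actn2 (-0.26) and Casq2 (-0.25) led the 10 relatively lower genes, with Xirp1 at -0.25. Relative changes of the 34 genes cancel out on average by construction, so that some must lie higher. The relative level was higher without overlap for 7 of the 34 genes, beside 27.4% of all genes, a share raised by the lower mean in knockouts. Those 7 genes were Tnni1, Casq1 (0.28), Tnnc1 (0.28), Mybpc1 (0.27), Tnnt3 (0.24), Neb (0.16) and Myom1 (0.15). Relative values show unequal change between genes and do not say which gene held its level.

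Ratios within pairs of related genes compare the same amplicons in every library, so the scaling of the libraries cancels. For 8 pairs with both genes tested, the log2 ratio was compared by an exact two-sided permutation test, in which 3 against 3 cannot give a p below 0.1 (0.133 after adjustment over the 8 pairs). The ratio of Casq1 to Casq2 was 0.590, 0.647 and 0.675 in controls and 0.903, 0.773 and 1.11 in knockouts. The groups did not overlap, knockout replicate 3 was the highest, and the difference was 0.53 on the log2 scale. The ratio of fast to slow troponin I, Tnni2 to Tnni1, was 1.495, 1.37 and 1.32 in controls and 1.03, 1.09 and 1.15 in knockouts. The knockout libraries were nearer to parity between these amplicons than any control, with a difference of -0.35 on the log2 scale.

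The ratio of Actn3 to Actn2 was 0.0348, 0.0233 and 0.0263 in controls and 0.0394, 0.0460 and 0.0419 in knockouts, a difference of 0.61 on the log2 scale. For fast to slow troponin T, Tnnt3 to Tnnt1, it was 33.95, 37.1 and 41.5 in controls and 41.8, 46.6 and 43.6 in knockouts, a difference of 0.23. The fast-to-slow ratio thus lay higher in knockout libraries in the troponin T pair and lower in the troponin I pair. The ratio of perinatal to embryonic heavy chain, Myh8 to Myh3, was 1.92, 1.78 and 1.99 in controls and 2.05, 2.20 and 2.19 in knockouts, a difference of 0.17. Myom2 to Myom1 differed by -0.28 without overlap. Each of these 6 ratios had an exact p of 0.1, the smallest the design can give. The pairs were chosen with earlier results of these data known. All but the troponin T ratio hold a gene called above, so they repeat part of those results. Acta1 to Actc1 (0.12, exact p = 0.2) and Tpm1 to Tpm2 (0.01, exact p = 0.9) overlapped between groups.

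**Figure D3:**
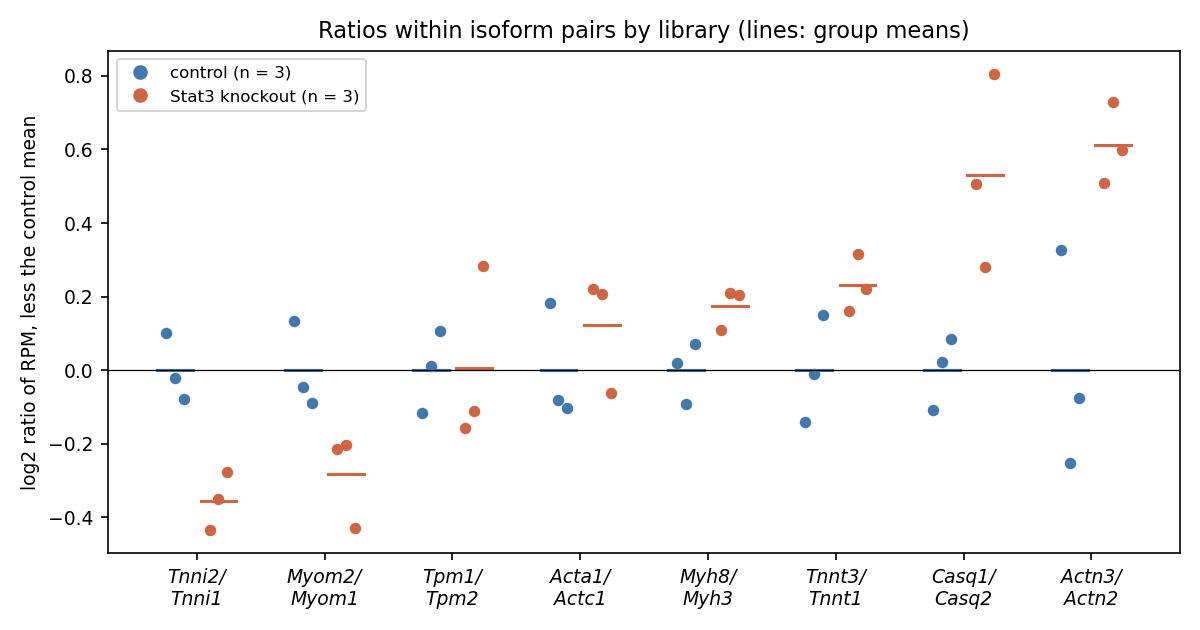
Log2 ratio of RPM within 8 pairs of related genes in each library, less the control mean of that pair, with group means as lines (n = 3 each). The ratios of Actn3 to Actn2 and of Casq1 to Casq2 lie 0.61 and 0.53 higher in knockouts, and those of Tnni2 to Tnni1 and Myom2 to Myom1 lie 0.35 and 0.28 lower.

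Further genes of the same apparatus, from lists of 81 symbols of which 77 were tested, moved both ways. Of the 77 genes 8 were higher (10.4%) and 9 lower (11.7%), beside 5.71% and 11.0% of all genes, and their median log2 fold change was 0.02. With TMM scaling 14 were higher (18.2%) and 7 lower (9.09%), beside 7.66% and 7.52%. Among other contractile genes 2 of 16 were higher and 2 lower (12.5% each). Myl2, the regulatory light chain of slow fibres and of the heart ventricle, read 130, 138 and 147 RPM in control bone and 195, 197 and 216 RPM in knockout bone. All knockouts exceeded all controls, with a log2 fold change of 0.55 ± 0.08 (limma, adjusted p = 6.94e-05). The second was Myh1, the heavy chain of fast IIx fibres, which was picked after its values were seen and rose from 6.96 ± 0.410 to 11.2 ± 0.534 RPM (SD, n = 3 each). Lower levels were found for the M-band gene Myom3, from 66.1 ± 2.38 to 48.3 ± 6.18 RPM, and Obsl1, a cytoskeletal adaptor, from 65.2 ± 4.95 to 53.3 ± 3.57 RPM.

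Among 28 further genes of the Z-disc and the membrane anchorage of fibres, 2 were higher (7.14%) and 3 lower (10.7%). These shares are near the 5.71% and 11.0% of all genes tested. Xirp2 (log2 fold change -0.57), a relative of Xirp1, and Myot (-0.37), a Z-disc protein that binds alpha-actinin, fell, as did Pdlim3 (-0.34), also a partner of alpha-actinin and named after its values were seen. Dysf (0.49), which serves membrane repair, rose. Of 18 further calcium-handling genes 3 were higher (16.7%) and 1 lower (5.56%). Cacna2d1, an auxiliary subunit of the voltage sensor, rose from 232 ± 8.45 to 334 ± 16.4 RPM, Srl, a calcium-binding protein of the store, from 1296 ± 164 to 1636 ± 123 RPM, and Asph, whose locus also encodes the triad protein junctin, from 400 ± 30.8 to 475 ± 30.3 RPM (SD, n = 3 each). Sln, an inhibitor of the calcium pump, fell with overlapping groups (log2 fold change -0.43, limma, adjusted p = 0.0191).

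In muscle metabolism, the oxygen carrier gene Mb rose (log2 fold change 0.49). Ampd1 (-0.41), the muscle AMP deaminase, and the mitochondrial creatine kinase gene Ckmt2 (-0.28) fell. That was 1 of 9 genes higher (11.1%) and 2 lower (22.2%), beside 5.71% and 11.0% of all genes tested. Of 6 chaperone and turnover genes 1 fell (16.7%), the small heat shock protein gene Hspb2 (-0.36). Among 12 tested genes of myoblasts and young fibres none was higher and 2 were lower (16.7%). With TMM scaling 1 of these 12 was lower (8.33%), beside 7.52% of all genes. Mef2c, a transcription factor that acts with myogenic factors and also in bone and vessels, read 140, 92.6 and 111 RPM in the controls against 78.5, 68.9 and 42.7 RPM in the knockouts. Its spread was wide within both groups without overlap, and the log2 fold change was -0.87 ± 0.16 (limma, adjusted p = 5.80e-04). Myf6, a myogenic factor of differentiated fibres, fell from 140 ± 4.31 to 115 ± 3.69 RPM (SD, n = 3 each). Among the genes named from these further lists, 1 left-out library ended the call of Obsl1 (adjusted p of 0.0978 to 0.167, control replicate 1 or 2 or knockout replicate 2 or 3), Asph (0.0510 to 0.123, control 1 or 2 or knockout 1 or 3) and Ckmt2 (0.111 to 0.149, control 1 or 2 or knockout 1 or 2). The same was so for Sln (0.0598 to 0.145, control 1 or 2 or knockout 3), Myf6 (0.0505 to 0.0650, control 1 or knockout 2 or 3), Srl (0.0585, control 1) and Ampd1 (0.0529, control 1). With TMM scaling Obsl1 (0.0910), Ckmt2 (0.0871) and Myf6 (0.0518) lost it too.

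**Figure D4:**
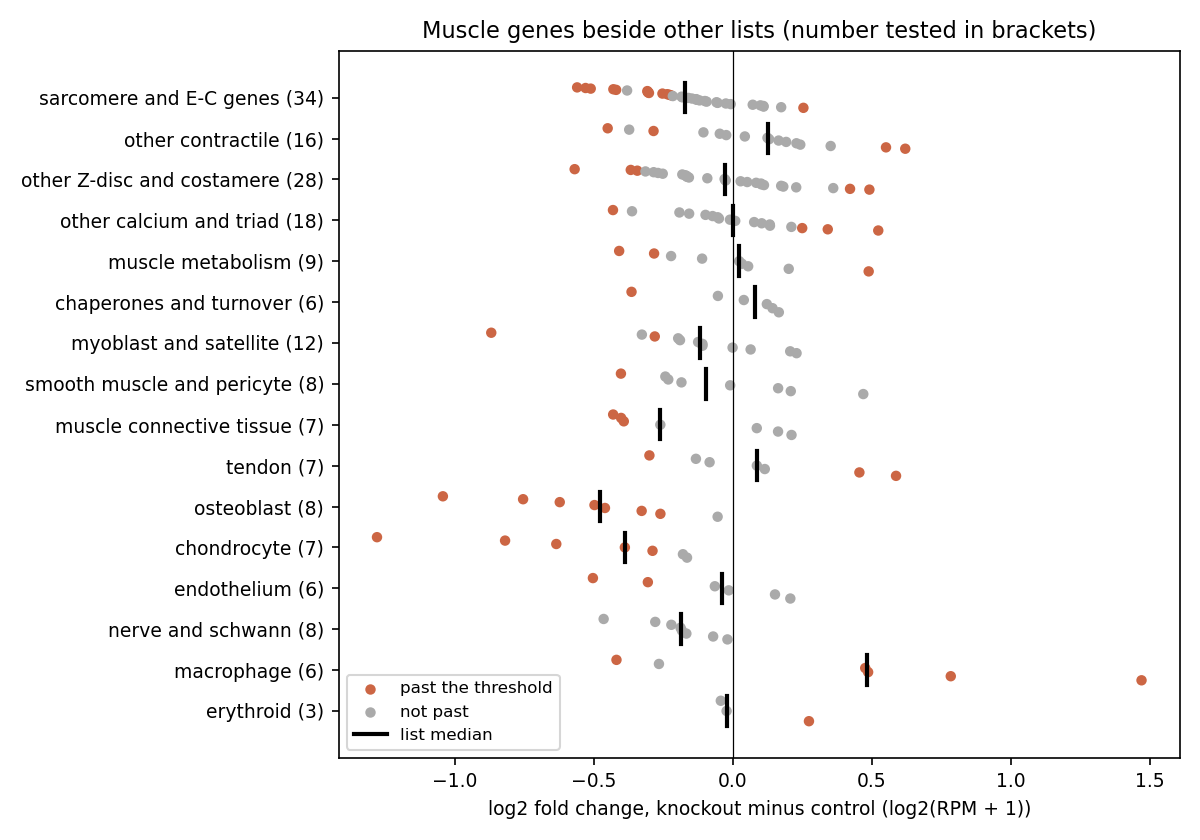
Log2 fold change of each gene, knockout minus control on the log2(RPM + 1) scale, for the 34 sarcomere and excitation-contraction genes and 15 other lists, with list medians as black bars and the number tested in brackets. The median lies at -0.17 for the 34 genes, between -0.03 and 0.13 for the 5 further muscle lists, and at -0.48 for osteoblast genes.

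Lists of genes of other cells in the humerus shaft were counted in the same libraries, and their part in the muscle results was not tested. Among all genes tested, 11.0% were lower and 5.71% higher. The share of lower genes was near or below that in the smooth muscle and pericyte list (12.5%) and the nerve list (0%). Osteoblast genes were lower in 7 of 8 and cartilage genes in 5 of 7, with summed levels of 37219 to 40459 and 418 to 442 RPM in control bone and 31865 to 36750 and 327 to 362 RPM in knockout bone. Col1a1, the 1 osteoblast gene that did not pass (log2 fold change -0.06), made up most of the osteoblast sum. Its means were 28711 RPM in controls and 27669 RPM in knockouts, with overlapping groups. Of 7 tendon genes 2 were higher and 1 lower (2539 to 2656 and 3212 to 3568 RPM summed). Tnmd and Scx, which mark tendon cells, rose by 0.59 and 0.45 on the log2 scale, and Kera fell by 0.30. Of 7 genes of muscle connective tissue 3 were lower, Tcf7l2, Pdgfra and Ly6a, with summed levels that overlapped at 596 to 617 and 615 to 628 RPM. The calls of Tcf7l2 (0.0532 to 0.0778), Ly6a (0.0576 to 0.154) and Kera (0.0535 and 0.0703) were each lost without control replicate 1 or 2, those of Tcf7l2 and Ly6a also without knockout replicate 2, and that of Ly6a without knockout replicate 1. Macrophage genes were higher in 4 of 6 and lower in 1 (355 to 370 and 460 to 493 RPM), endothelial genes lower in 2 of 6 (647 to 696 and 650 to 683 RPM), and smooth muscle and pericyte genes lower in 1 of 8 (3599 to 3803 and 3390 to 3702 RPM). Of 8 nerve genes none passed (77.0 to 94.1 and 66.0 to 81.1 RPM), and 1 of 3 tested erythroid genes was higher (67.6 to 79.8 and 78.7 to 88.0 RPM). Several of these counts rested on single libraries. The count of lower cartilage genes was 3 without control replicate 1 or 2 or knockout replicate 2 and also with TMM scaling, and 4 without any other library. The erythroid count was 0 without any 1 library other than control replicate 1. The count of higher macrophage genes was 3 without any 1 library other than knockout replicate 2, and that of lower ones was 0 without control replicate 1 or knockout replicate 2 and 2 without control replicate 3 or knockout replicate 3. For endothelium the lower count was 1 without control replicate 1 or 2 or knockout replicate 1, and for smooth muscle and pericytes it was 0 without control replicate 2 and 2 without knockout replicate 1. The osteoblast count stayed at 6 or 7 throughout these fits.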

How the data were processed

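Total RNA of 6 libraries was read with the Ion AmpliSeq mouse transcriptome panel, which amplifies 1 short target per gene, per the labels' protocols. A value therefore reports that target. Its position, the aligner, the counter and the genome build are unstated in the sources at hand. Values were deposited by the authors as RPM, reads scaled to a fixed library total. All values above 0 (100%) were whole multiples of 1 step within 0.1 read, which gave the depths. Gene positions are those of GENCODE M21 on GRCm38, matched by symbol. For 27 amplicons, symbols turned into dates were read back from the amplicon names.

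Log2(RPM + 1) was fitted for amplicons averaging 1 RPM or more and compared between groups with limma 3.58.1 (trend, two-sided p adjusted by Benjamini-Hochberg over all genes tested, threshold 0.05) in R 4.3.3. Fold changes on this scale understate those of low genes. The fit was checked on simulated reads, with the same excess spread for every gene and changes of random sign. That setting differs from these data, so the check says nothing about single calls here. Within a group, pairs of libraries differed beyond counting noise (chi-square per degree of freedom 4.33 to 7.38). Members, lists and pairs were chosen with earlier results of these data known. All members are named, and from each other list up to 4 called genes averaging 10 RPM or more, by size of change. Alternatives were pseudocounts, filters, scalings, no variance trend, a replicate block, leaving out each library, and edgeR 4.0.16 and DESeq2 1.42.0 on the recovered reads. Ratios used exact permutation tests in scipy 1.17.1. The values of 1 called gene of the further lists are not reported here, though list counts include it.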

Additional observations from a re-analysis of the deposited data

How the results depend on the processing

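Of the 14 genes called, all kept their direction under the alternatives tried, and 5 (Ttn, Actn2, Ldb3, Ryr1 and Casq2) kept the call under all 17 alternatives with a test. The counts of the 34 genes varied more. Without a filter 0 were higher and 8 lower, without a variance trend 0 and 5, with quantile scaling 0 higher, and with median-of-ratios scaling and with edgeR 8 lower. Leaving out 1 library gave 0 to 1 higher and 8 to 11 lower. Across the panel the reported test called 733 amplicons higher and 1409 lower. The lower count was 869 without a filter, 877 with quantile scaling, 895 with median-of-ratios scaling, 922 with edgeR and 775 with DESeq2, and without a variance trend 361 were higher and 634 lower. Leaving out 1 library gave 444 to 705 higher and 729 to 1314 lower. Of the further muscle genes, 14 were higher with TMM, 16 with median-of-ratios scaling, 15 with edgeR and 16 with DESeq2, 2 were lower without a variance trend, and 6 to 10 were higher and 5 to 11 lower without 1 library.

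The sign turned for 5 genes near 0, none of them called. Myom1 stood at 0.0241 with TMM, 0.0347 with median-of-ratios scaling, 0.0310 with edgeR and 0.0371 with DESeq2. Neb stood at 0.0415, 0.0521, 0.0465 and 0.0527 under the same settings. Jph1 was at 1.2e-05 with median-of-ratios scaling, 5.5e-04 with edgeR and 0.00638 with DESeq2, Ckm at 0.00531 with median-of-ratios scaling and 0.00564 with DESeq2, and Tnnt3 at -0.0114 with quantile scaling. Leaving out 1 library gave -0.0630 to 0.0272 for Neb, up to 0.0143 for Jph1, and -0.133 to 0.0865 for the log2 ratio of Tpm1 to Tpm2. The causes were not tested.

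With the replicate number as a block, 1 gene was higher and 14 lower, Tpm1 being added, and 836 and 1626 over all genes. Same-numbered libraries did not deviate together in every pair (correlations of 0.01, -0.02 and 0.11), so the numbers were not taken as pairs.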
